A study of Sus scrofa with 16 samples.

Results

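The highest and the lowest dose of oestradiol (E2, the main oestrogen of the ovary) were compared in the inner lining of the uterus (endometrium) of pregnant sows. The members are the libraries labelled with 1000 µg per kg body weight per day, from sows 12, 13, 14 and 15, and those labelled with 0.05 µg/kg/day, from sows 5, 6 and 7. That is 8 of the 16 libraries and 7 of the 15 sows of the series, because sow 7 was extracted 2 times and its libraries, 7a and 7b, were summed. All sows were adult and pregnant, were dosed by mouth from insemination, and were sampled on day 10 of pregnancy after the uterus had been flushed, so no group is without pregnancy. The 4 control sows, which received the ethanol carrier alone, and the 4 sows at 10 µg/kg/day entered the fit to share its estimate of spread. They also entered the filter that sets which reads are tested and the scaling of counts. Their levels are given as context.

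MicroRNAs (miRNAs) are RNAs of about the length of the most frequent read here, 22 nt, that guide Argonaute proteins to messenger RNAs through their seed, bases 2 to 8. In the uterus oestradiol acts mainly through oestrogen receptor alpha and drives growth and secretion of the epithelium. In pig pregnancy the conceptuses themselves secrete oestrogen around the time of maternal recognition. Longer small RNAs include 5′ fragments of transfer RNAs (tRNAs), which are cut in the anticodon loop, and 5′ ends of Y RNAs, which bind the Ro60 protein.

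The reads on which the comparison turns are these, each the most frequent read of a group that shares its first 18 nt, with the seed in capitals for the miRNA reads.
miR-449a: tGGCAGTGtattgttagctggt
miR-449b: aGGCAGTGtattgttagctggc
miR-34c: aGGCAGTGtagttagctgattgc
miR-203: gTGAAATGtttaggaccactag
miR-203, start 1 base later: tGAAATGTttaggaccactagt
miR-200b: tAATACTGcctggtaatgatga
miR-30a: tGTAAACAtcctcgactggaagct
miR-21: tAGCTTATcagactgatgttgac
tRNA-Gly 5′ fragment: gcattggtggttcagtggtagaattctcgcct
Y4 RNA 5′ end: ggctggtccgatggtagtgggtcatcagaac
The first 3 reads share the seed GGCAGTG and are shown to let the miR-449 reads be told from miR-34c, and the pair of miR-203 reads shows the same RNA read from adjacent starts. Only the seed was matched. The name of a single read, and the identity of the longer fragments, is background knowledge and not a match to a reference. No miRNA or tRNA sequence table was used here, so no genome position is given.

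The 3 sows at 0.05 µg/kg/day gave 6198464 to 18525580 reads and the 4 at 1000 gave 4497096 to 14085579. Markers of the labelled tissue were present in all 7: the epithelial miR-200b, miR-200c and miR-429 family had 13885 to 21015 CPM (the read count scaled to a common depth of 18 to 26 nt reads by TMM) and the stromal and smooth muscle family miR-143 had 34376 to 132284. Markers of other tissues were not all low. The liver family miR-122 had 24.6 to 42.8 CPM, but the brain miRNA read of miR-9 had 879 to 2414 and the muscle read of miR-1 133 to 1308. In bulk tissue, fewer cells of a type and less RNA per cell cannot be told apart. The libraries differ in length profile, and by cutoffs on it sows 5 and 12 form class A, 7 and 15 class B, and 6, 13 and 14 class C. Class B is not closely matched. Sows 7 and 15 had 4.75% and 1.22% of reads at 40 nt or more, and 52.7% and 61.1% at 20 to 24 nt. Libraries 7a and 7b of sow 7 had 2.11% and 6.38% at 40 nt or more. Class is spread over both doses, with 1 sow at 0.05 in each, so within-class differences are given below as values with no test. Sow 13 had the highest level of the families miR-143, miR-451 and miR-1 with miR-206 of the 7, and sow 15 was the lowest of the 7 in 37 of the 71 miRNA families of at least 100 CPM. Across those 71 families the Pearson r of log2 CPM between sows was 0.9895 to 0.9916 within the 0.05 group, 0.9619 to 0.9876 within the 1000 group and 0.9694 to 0.9939 between the groups, values that share library preparation and family levels.

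No miRNA family was called between the doses. By edgeR's quasi-likelihood test 0 of 111 seed families were called at an adjusted p under 0.05, a background of 0%, and 1 had an unadjusted p under 0.05 (0.901%), as by DESeq2, which called 0. The smallest adjusted p was 0.987. Among the 99 families whose leading read carries the listed miRNA, 56 stood higher and 43 lower at 1000 µg/kg/day, with a median log2 difference of 0.050. Among the 71 abundant families, 58 had a 95% interval inside 1 log2 unit on either side of 0, and 0 had one inside 0.5. A doubling is thus outside the interval for most abundant families, while smaller shifts are not, since the median interval reached 0.61 log2 units to each side.

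**Figure D1:**
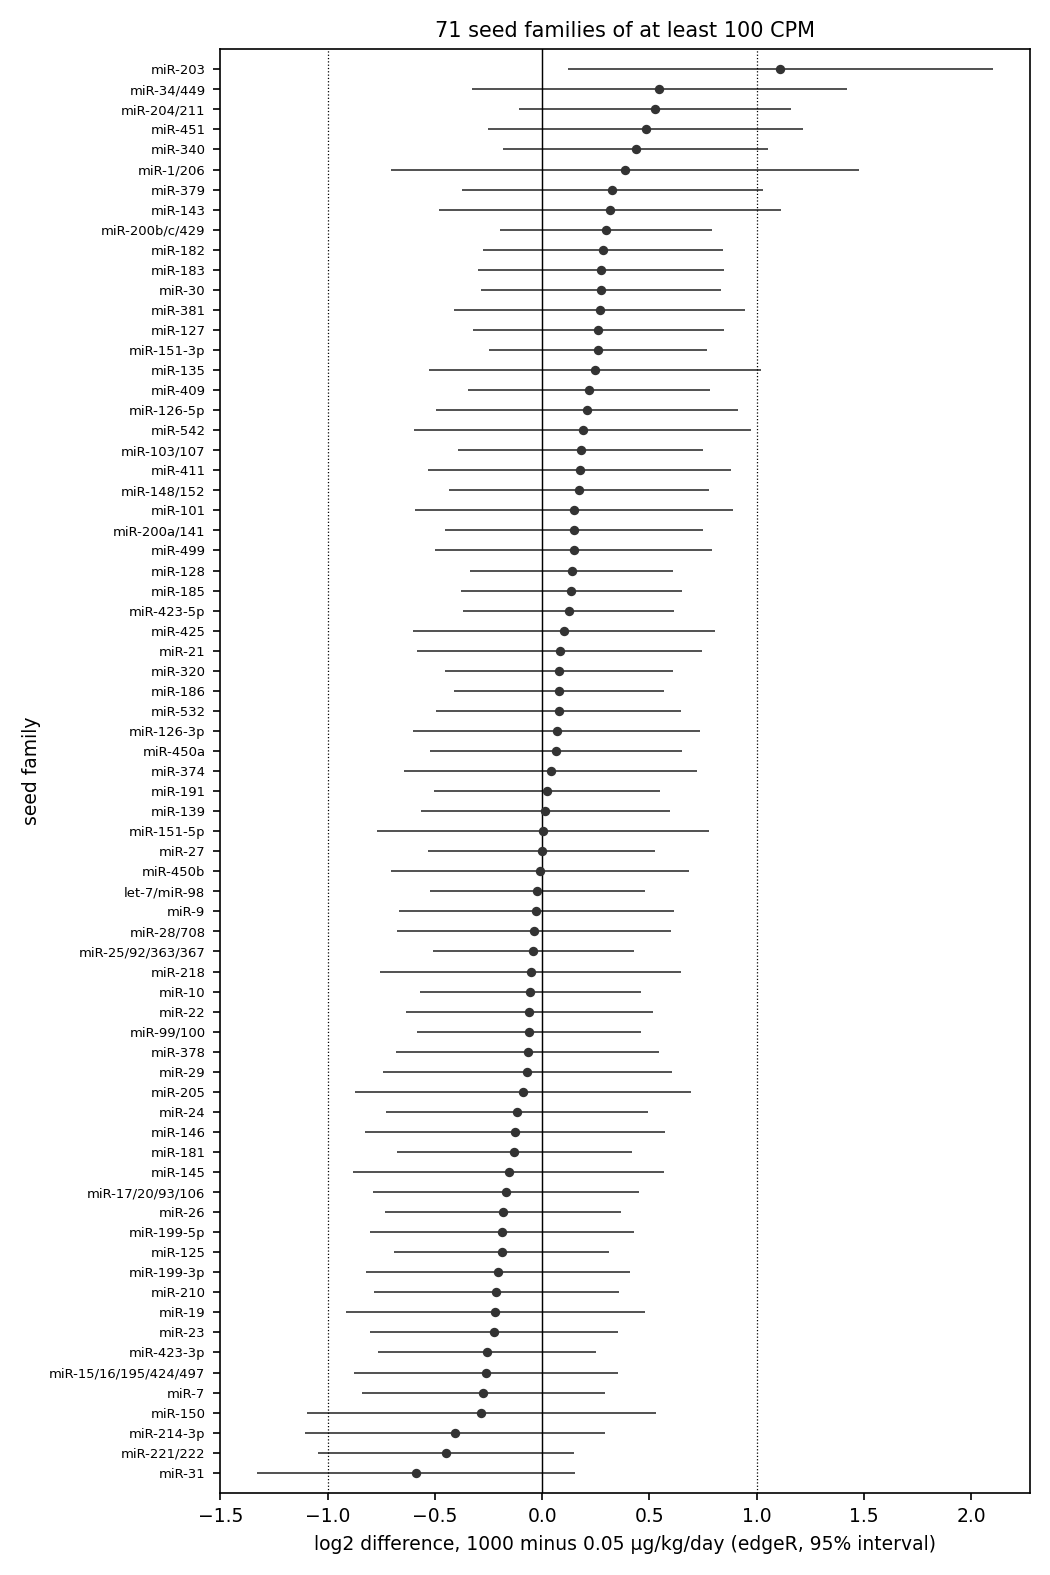
The log2 difference in CPM between 1000 and 0.05 µg/kg/day (points, edgeR) with its 95% interval (lines) is plotted for the 71 seed families of at least 100 CPM, and dotted lines mark 1 log2 unit. Of these families 67 lie within 0.5 log2 units of 0, and only miR-203 has an interval that leaves out 0.

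The most abundant miRNAs had small differences between the doses. The miR-21 family, linked to growth and survival, had 88695, 97267 and 94748 CPM in sows 5, 6 and 7 at the low dose. At the high dose sows 12 to 15 had 124277, 87126, 101088 and 83452 CPM, on both sides of the low-dose sows. The log2 difference was 0.08 ± 0.32 (SE; 95% interval -0.58 to 0.75). The let-7/miR-98 family, which restrains proliferation, stood at 99413 ± 20851 against 101054 ± 4849 CPM (SD, n = 4 and 3), a log2 difference of -0.02 whose sign was not stable: with all deposited reads as the scale it was 0.090. Its most frequent reads, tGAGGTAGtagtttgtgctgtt (let-7i) and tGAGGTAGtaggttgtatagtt (let-7a), differed by 0.01 and -0.04 on the log2 scale.

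Both miR-10 reads, which come from the HOX clusters, likewise had small differences. The read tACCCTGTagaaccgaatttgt (miR-10b) stood at 27974 ± 2982 against 30304 ± 3634 CPM, and tACCCTGTagatccgaatttgt (miR-10a) at 19214 ± 2554 against 18771 ± 3364 (SD, n = 4 and 3). Among the other most frequent reads, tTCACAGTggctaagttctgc (miR-27b), aACCCGTAgatccgatcttgt (miR-99a), tTCAAGTAatccaggataggct (miR-26a) and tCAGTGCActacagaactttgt (miR-148a) had log2 differences of -0.0037, -0.12, -0.19 and 0.19. All of these intervals included 0.

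The family with the smallest p was miR-203, a miRNA typical of stratified and differentiating epithelium. It had 598, 631 and 411 CPM in sows 5, 6 and 7, and 1492, 1320, 510.3 and 1395 CPM in sows 12 to 15. Sow 14 lay among the low-dose sows and the other 3 high-dose sows above them. The log2 difference was 1.11 ± 0.48 (SE; 95% interval 0.12 to 2.10), with an unadjusted p of 0.0298 and an adjusted p of 0.987 by edgeR. It ran from 0.94 without sow 7 to 1.36 without sow 14, and within length classes A, B and C it was 1.32, 1.76 and 0.54. Control sows spanned 404 to 2023 CPM, wider than either dose group, and the sows at 10 µg/kg/day 382 to 930.1.

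The same pattern was seen in reads of miR-203 that start 1 base later, which carry another seed and are outside the family count. The read tGAAATGTttaggaccactagt, singled out after its values were seen, had 432, 442 and 359 CPM at the low dose and 1729, 1344, 428 and 2048 CPM at the high dose. Sow 14 was again the low one. Its log2 difference of 1.76 (95% interval 0.17 to 3.34) was the wider of the pair, with an adjusted p of 0.9997 by edgeR. The usual start had 578, 611 and 392 CPM at the low dose and 1457, 1283, 489 and 1356 at the high dose. The later start was thus the more frequent one in sows 12, 13 and 15, and the less frequent one in the other 4 of these 7 sows. It was also the more frequent one in control sows 2, 3 and 4, at 2620, 428 and 2508 CPM against 1974, 388 and 1810. Control sow 1 had 379 against 484 CPM. Sows at 10 µg/kg/day had 326 to 813 CPM of the later start and 364 to 899 of the usual one.

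The other families with the smallest p were miR-204 and miR-211, miR-31, miR-221 and miR-222 and miR-340, all with overlapping groups and an adjusted p of 0.987 by edgeR. The miR-204 and miR-211 family, known from retinal pigment epithelium, had 594, 1133 and 782 CPM at 0.05 and 1963, 811, 1210 and 833 at 1000 µg/kg/day. Its log2 difference of 0.53 was 0.19 without sow 12, the highest of the 7. miR-31, a miRNA linked to invasion, had 757, 729 and 662 CPM at the low dose and 691, 209, 555 and 449.1 at the high dose. That difference of -0.59 was -0.34 without sow 13, the lowest of the 7. The miR-221 and miR-222 family, named as acting on oestrogen receptor alpha, stood at 868 ± 273 against 1184 ± 238 CPM (SD, n = 4 and 3; log2 -0.45, 95% interval -1.05 to 0.15). miR-340 stood at 739 ± 182 against 547 ± 155 CPM (log2 0.44, 95% interval -0.18 to 1.05).

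Read groups, which keep each 5′ sequence apart, were not called either. Of 11123 groups 0 passed edgeR's test (0%), with 213 at an unadjusted p under 0.05 (1.91%), made up of 0.827% higher and 1.09% lower. DESeq2 called 0, with 193 at an unadjusted p under 0.05. All 4 high-dose sows lay above all 3 low-dose sows in 2.51% of the groups and below them in 2.46%, and above or below all 11 other sows in 0.108% and 0.0989%. Of these 11123, 1201 carry a listed seed, of which 0 were called and 28 had an unadjusted p under 0.05 (2.33%), 1.25% higher and 1.08% lower. The lowest adjusted p was 0.9997 by edgeR. In 41 of the 1201 groups (3.41%) the high-dose sows all lay above the low-dose sows, and in 18 (1.5%) below.

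Among groups with a listed seed, 2 miR-449 reads had the smallest p-values of those not 1 base from a group with 20 or more times their reads. In the 18 nt that define a group, these 2 differ from each other at base 1 alone. The miR-449a group had 2079 reads at the low dose and 5558 at the high, and miR-449b 173 and 550. They are thus not taken as 2 separate results, and whether some miR-449b reads are misread miR-449a was not tested. miR-449a and miR-449b, expressed with miR-34b and miR-34c in multiciliated epithelium, belong to the miR-34 and miR-449 seed family. miR-449a had 70.3, 125 and 112 CPM in sows 5, 6 and 7, and 332, 242, 221 and 238 CPM in sows 12 to 15. Every high-dose sow was above every low-dose sow. The means were 258 ± 49.9 and 103 ± 28.7 CPM (SD, n = 4 and 3), a log2 difference of 1.33 ± 0.42 (SE; 95% interval 0.44 to 2.22). The unadjusted p was 0.00583 and the adjusted p 0.9997 by edgeR.

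miR-449b had 8.45, 9.48 and 8.84 CPM at the low dose and 36.2, 22.8, 22.5 and 22.6 CPM at the high dose. Again the groups did not overlap, and sow 12 was highest in both reads. The log2 difference was 1.54 ± 0.41 (SE; 95% interval 0.69 to 2.40), with an unadjusted p of 0.00121 and an adjusted p of 0.9997 by edgeR. Both differences held their sign when any 1 of the 7 sows was left out, which they had to, since the groups do not overlap. For the same reason no within-class difference could be negative, so neither check tests the sign further. Within classes A, B and C the differences were 2.24, 1.08 and 0.88 for miR-449a and 2.10, 1.35 and 1.26 for miR-449b. Control sows reached 208 CPM of miR-449a and 17.5 of miR-449b, and sows at 10 µg/kg/day 217 and 16.8. In these 2 of the 1201 groups with a listed seed (0.167%) all 4 high-dose sows lay above all 11 other sows. The share over all 11123 groups was near that, at 0.108%, and both reads were picked for their small p. For miR-449a the gap is that of 221 against 217 CPM.

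miR-34c, far more abundant, did not show this separation. It had 5742, 6955 and 6237 CPM at 0.05 and 8604, 13063, 9309 and 5688 at 1000 µg/kg/day. Sow 15 lay below all low-dose sows and the other 3 above them. The log2 difference was 0.54 (95% interval -0.49 to 1.57), and within class B it was -0.13, between sows 15 and 7. Since miR-34c makes up most of the miR-34 and miR-449 family, the family stood at 9945 ± 3147 against 6808 ± 694 CPM (SD, n = 4 and 3; log2 0.55, 95% interval -0.33 to 1.42). The read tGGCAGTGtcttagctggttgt, miR-34a, had a log2 difference of 0.34 (95% interval -0.38 to 1.06). Whether the difference of miR-449 was larger than that of miR-34c was not tested.

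**Figure D2:**
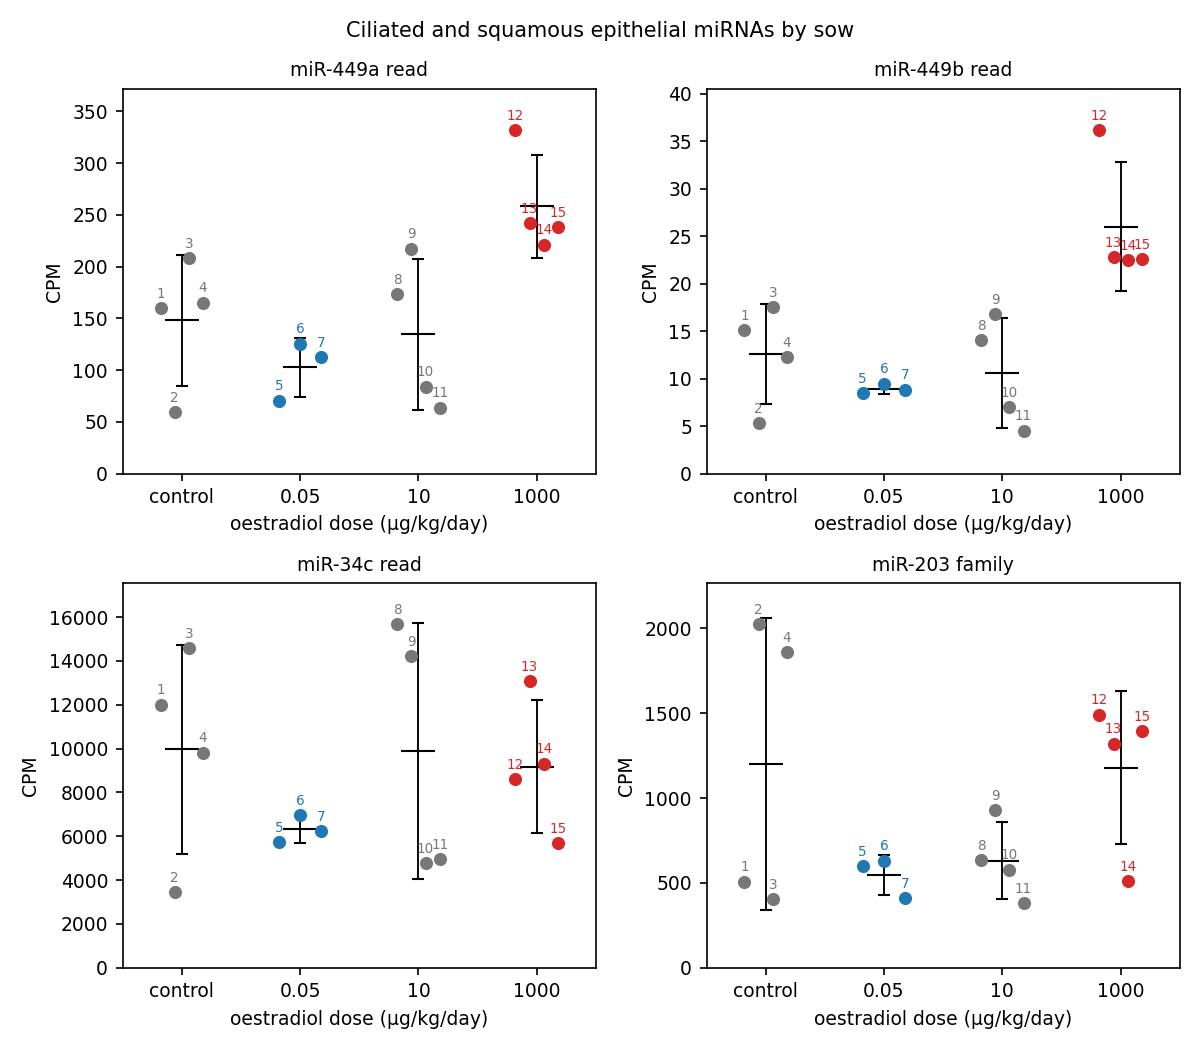
CPM is plotted on linear axes for each sow (points, numbered by sow) against dose, with mean and SD as bars, for the miR-449a, miR-449b and miR-34c reads and the miR-203 family. The 4 red points at 1000 µg/kg/day sit above all other sows for miR-449a and miR-449b, and overlap other groups for miR-34c and miR-203.

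Of the 20 seed-bearing groups with the smallest p, 17 differ by 1 base from a parent group with 20 or more times their reads, and 15 of the 20 stood higher at 1000 µg/kg/day. No sow had more than 19.6 CPM of any of the 17. They carry few reads, and the absolute log2 difference of the parent was smaller than that of the variant in 16 and larger in 1. The variants were picked for their small p and the parents were not. Variants of miR-203 (aTGAAATGtttaggaccactag, with 6 reads at the low dose and 58 at the high, and gTGAAATGtttagggccactag) had log2 differences of 2.94 and 1.44. A variant of the later-starting miR-203 read, tGGAATGTttaggaccactagt, at 1.57, falls into the miR-1 and miR-206 family by its seed alone and is no muscle miRNA.

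The 5 variants of miR-200 reads among them all stood higher at 1000 µg/kg/day. They are gAATACTGccgggtaatgatgga, tAATACTGtctggtaacgatgtt, tAATACTGcctggcaatgatga, tAACACTGtctagtaacgatgt and tAATACTGcctgttaatgatga, with log2 differences of 1.27, 0.75, 0.66, 0.71 and 1.54. Variants of miR-30 reads (tGTAAACAtcatcgactggaagct, tGTAAACAtccccgattggaagct and tGTAAACAtcctcgaatggaagct) had 1.80, 0.90 and 1.55. Those of miR-182 (tTTGGCAAtggtagaacccacact) and miR-204 (tTCCCTTTgtcgtcctatgcct) had 0.88 and 0.97. Lower at the high dose were variants of miR-210 (cTGTGCGTgtgacggcggctgaat, -1.04), miR-423-3p (aGCTCGGTctgaggtccctcagt, -1.14), miR-26 (tTCAAGTAttccaggataggct, -1.05) and let-7 (tGAGGTAGtaggttgtgg, -0.70), and 1 group of the miR-450b seed, tTTTGCAAgactgaggcc, at -0.74. The last is named by its seed alone. The lowest adjusted p of these groups was 0.9997 by edgeR.

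Over all read groups the smallest p belonged to tCTGACAAaaccttccttt, whose identity was not established. It had 0 reads at 0.05 and 35 at 1000 µg/kg/day, or 2.08, 0, 0.577 and 2.05 CPM in sows 12 to 15 (adjusted p = 0.9997 by edgeR), so sow 13 lay at the low-dose level. The sows at 10 µg/kg/day had 0.396 to 2.80 CPM and control sows up to 0.859. The group gAACGGTGcctgtgtggctaga, also unidentified, had 0.817, 2.30 and 1.46 CPM at the low dose and 10.7, 18.9, 4.90 and 5.41 at the high dose, without overlap (log2 2.66, adjusted p = 0.9997). A variant of the later-starting miR-203 read, tGAAATGTttgggaccactagt, stood at 3.55 ± 1.04 against 0.916 ± 0.404 CPM (SD, n = 4 and 3).

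No family of either epithelial list was called. The miR-200 miRNAs, which repress ZEB1 and ZEB2 and hold the epithelial state, form 2 families. miR-200b, miR-200c and miR-429 stood at 18414 ± 2411 against 14999 ± 1669 CPM and miR-200a and miR-141 at 13076 ± 3926 against 11802 ± 2343 (SD, n = 4 and 3), with overlapping groups and log2 differences of 0.30 (95% interval -0.20 to 0.79) and 0.15 (-0.45 to 0.75), the latter -0.05 without sow 12. Within the first, the miR-200b read had 8397, 8995 and 8213 CPM at 0.05 and 12300, 10265, 11192 and 9234 at 1000 µg/kg/day. Its groups did not overlap, but the smallest gap was that of 9234 against 8995 CPM, and the log2 difference was 0.33 (95% interval -0.15 to 0.82). Of 64 groups with a miR-200 seed 63 stood higher and 0 were called, beside 699 higher of all 1201 with a listed seed. The median was 0.33 beside 0.064 for all 1201. Of the 64, 59 are 1-base variants of more abundant reads, so the groups are not separate results.

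Of the 6 families of the other epithelial list, 4 stood higher (median 0.28), 2 stood lower and 0 were called. The lower members were miR-31, described above, at -0.59 and miR-205, of stratified and glandular epithelium, at -0.09. miR-182 and miR-183, which come from 1 cluster, both stood at 0.28 on the log2 scale. The summed level of this list was 9717 to 11181 CPM in the low-dose sows and 10420 to 18189 in the high-dose sows. Most of that sum was the miR-34 and miR-449 family, with 6197 to 7563 CPM at the low dose and 6242 to 13927 at the high dose, the highest in sow 13.

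Stroma and smooth muscle families mostly stood lower, but their read groups were split. Of 9 families 8 stood lower and 1 higher at 1000 µg/kg/day, with a median of -0.16 and 0 called. Over all families 43 of 99 stood lower. Of 252 read groups with a seed of this list, 124 stood higher and 128 lower (median -0.014). The family that stood higher was miR-143, at 45584, 66032 and 50017 CPM in the low-dose sows and 44449, 132284, 57235 and 34376 in the high-dose sows. Its log2 difference of 0.32 was -0.25 without sow 13. miR-145, from the same transcript, stood at -0.16, miR-199-5p and miR-199-3p at -0.19 and -0.21, and miR-214-3p at -0.40. All of these intervals included 0.

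Families named for oestrogen receptor alpha did not move together. Of 8 families, 2 stood higher and 6 lower (median -0.12) and 0 were called. miR-22, which acts on the receptor's own messenger, stood at 2922 ± 916 against 3044 ± 943 CPM (SD, n = 4 and 3; log2 -0.06, 95% interval -0.63 to 0.52). miR-27 stood at -0.0027 and miR-26 at -0.18. In the implantation list, 3 of 9 families stood higher (median -0.13). There the miR-30 family stood at 0.27, its miR-30a read had 10909, 13502 and 11764 CPM against 17108, 23131, 16191 and 13250, and 3 of those 4 high-dose sows lay above all low-dose sows.

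Markers of blood and vessels followed single sows. The red cell miRNA miR-451 had 2037, 1473 and 1628 CPM at the low dose and 2621, 3967, 2186 and 802 at the high dose, so that sow 15 was the lowest and the other 3 the highest. Its log2 difference was 0.48, and 0.13 without sow 13. miR-144, from the same transcript, was 54.2 to 177 CPM in sows 12 to 14 and 20.3 in sow 15. miR-486 (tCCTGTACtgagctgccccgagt) stood at 0.22. The endothelial reads tCGTACCGtgagtaataatgcg (miR-126-3p) and cATTATTActtttggtacgcg (miR-126-5p) stood at 0.07 and 0.21, with their highest levels in sow 13.

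Leukocyte families split evenly, with 3 of 6 higher and a median of -0.036. The reads tGAGAACTgaattccataggctg (miR-146b) and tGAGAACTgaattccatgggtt (miR-146a), both of inflammatory signalling, stood at -0.49 and 0.34, the latter -0.23 without sow 12. The muscle read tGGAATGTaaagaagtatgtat (miR-1) had 1308 CPM in sow 13 and 133 to 532 in the other 6, and its log2 difference of 0.39 was -0.43 without sow 13. tTAAGACTtgcagtgatgttt (miR-499 by its seed) stood at 0.18. Of the liver and brain list, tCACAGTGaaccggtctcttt (miR-128) stood at 0.17 and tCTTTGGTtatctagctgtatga (miR-9) at -0.03. The part of these cells in the differences above was not tested.

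Clusters tied to growth differed little. All 4 families of the miR-17-92 list stood lower (median -0.19) and 0 were called, and its most frequent reads, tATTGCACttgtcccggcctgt (miR-92a) and cATTGCACttgtctcggtctga (miR-25), stood at -0.18 and 0.11. Both reads carry the same seed, which the embryonic miR-367 shares, so no embryonic miRNA is named from it. In the list of miR-23, miR-27 and miR-24, 3 of 3 families stood lower (median -0.12), and tGGCTCAGttcagcaggaac (miR-24) stood at -0.12. In the imprinted DLK1-DIO3 cluster, whose miRNAs are expressed from the maternal copy, 13 of 15 families stood higher (median 0.18) and 0 were called. There tATACAAGgacaagctctctgt (miR-381 by its seed) stood at 0.27 and tCGGATCCgtctgagcttggct (miR-127) at 0.26. miR-409 of this cluster was the only 1 of the 111 families whose groups did not overlap (0.901%), at 97.8, 106.9 and 109 CPM against 111, 117, 139 and 120.2, a log2 difference of 0.22. The hypoxia miRNA miR-210 (cTGTGCGTgtgacagcggctgaat) stood at -0.21, and tAGCTTATcagactggtgttgac, a 1-base variant of miR-21, at 0.08, as its parent.

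Reads of 28 to 36 nt, added after earlier results were known, held tRNA fragments that stood lower at the high dose. By edgeR 0 of 7175 groups were called (0%), with 217 at an unadjusted p under 0.05 (3.02%), of which 137 were lower (1.91%) and 80 higher (1.11%). DESeq2 called 2, with 208 at an unadjusted p under 0.05, and both had reads in sow 15 alone of the 7 sows. All high-dose sows lay above all low-dose sows in 2.37% of the groups and below them in 2.9%, and above or below all 11 other sows in 0.0836% and 0.111%. Scaled by all deposited reads, the split at an unadjusted p under 0.05 was 188 lower and 11 higher. The tRNA-Gly 5′ fragment, the most frequent of them, had 239780, 127597 and 144378 CPM of 28 to 36 nt reads in sows 5, 6 and 7. Sows 12 to 15 had 73292, 65868, 74580 and 131860 CPM. Sow 15 lay among the low-dose sows and the other 3 below all of them. The log2 difference was -0.98 ± 0.40 (SE; 95% interval -1.82 to -0.14), with an unadjusted p of 0.0243 and an adjusted p of 0.9997 by edgeR. It was -0.64 without sow 5 and -1.26 without sow 15.

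The tRNA-His 5′ fragment had 3700, 2545 and 1909 CPM at 0.05 and 1251, 2207, 1370 and 1725 at 1000 µg/kg/day, and only sow 13 lay among the low-dose sows. It stood at 1638 ± 429.1 against 2718 ± 908 CPM (SD, n = 4 and 3; log2 -0.73, 95% interval -1.70 to 0.24), with a log2 difference of -0.43 without sow 5. Within length classes A, B and C the differences were -1.71, -0.13 and -0.86 for tRNA-Gly and -1.56, -0.15 and -0.51 for tRNA-His. So both were small between sows 15 and 7 and largest between sows 12 and 5. Sow 11 at 10 µg/kg/day had 58400 CPM of the tRNA-Gly fragment, below every high-dose sow, and the other sows at that dose up to 333858.

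Related fragments leaned the same way. Of 104 groups of 28 to 36 nt that hold the last 16 bases of the tRNA-Gly read, 102 stood lower (median -0.92, 0 called), beside 3417 of all 6964 with a leading read (median 0.0080). For tRNA-His it was 23 of 23 (median -0.62, 0 called). The groups of each set share their source. Among 18 to 26 nt reads, 14 of 15 groups that are pieces of the tRNA-Gly read stood lower (median -0.78). The piece gttcagtggtagaattctcgcct had 486, 167 and 259.8 CPM at the low dose and 89.8, 149.7, 78.5 and 180.2 at the high dose (log2 -1.29, adjusted p = 0.9997 by edgeR). It shares the end of that fragment, while gcattggtggttcagtggtagaatt, which starts with it, stood at -0.39.

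No Y RNA or ribosomal RNA fragment was called. The Y4 RNA 5′ end had 10694, 27178 and 17394 CPM at 0.05 and 24328, 48071, 32585 and 20197 at 1000 µg/kg/day. Sow 6 lay above sows 12 and 15, so the groups overlapped. The log2 difference was 0.76 ± 0.34 (SE; 95% interval 0.07 to 1.46; adjusted p = 0.9997 by edgeR), 0.48 without sow 13 and 1.16 without sow 6. The Y1 RNA 5′ end had 2222, 3126 and 2026 CPM at the low dose and 3609, 5959, 3043 and 2130 at the high dose. Its groups overlapped too, and its log2 difference of 0.58 (95% interval -0.10 to 1.27) was 0.25 without sow 13. The 5′ end of 28S rRNA stood at 32324 ± 2673 against 33528 ± 2436 CPM (SD, n = 4 and 3), and the 3′ end of 5S rRNA at 38872 ± 17185 against 40080 ± 8270. Their log2 differences were -0.05 and -0.04, the latter 0.18 without sow 13, and those of the 5.8S and 18S 5′ ends were -0.23 and -0.21. Related groups were counted by a shared stretch of 16 bases, as for the tRNAs, with 0 called. All 7 groups related to the Y4 read stood higher (median 0.72), as did all 3 for Y1 (median 0.58). For 5S, 251 of 318 stood lower (median -0.31), as did 17 of 19 for 5.8S (median -0.23). It was 8 of 10 for 18S (median -0.21) and 7 of 15 for 28S (median 0.05). The groups of each set share their source.

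**Figure D3:**
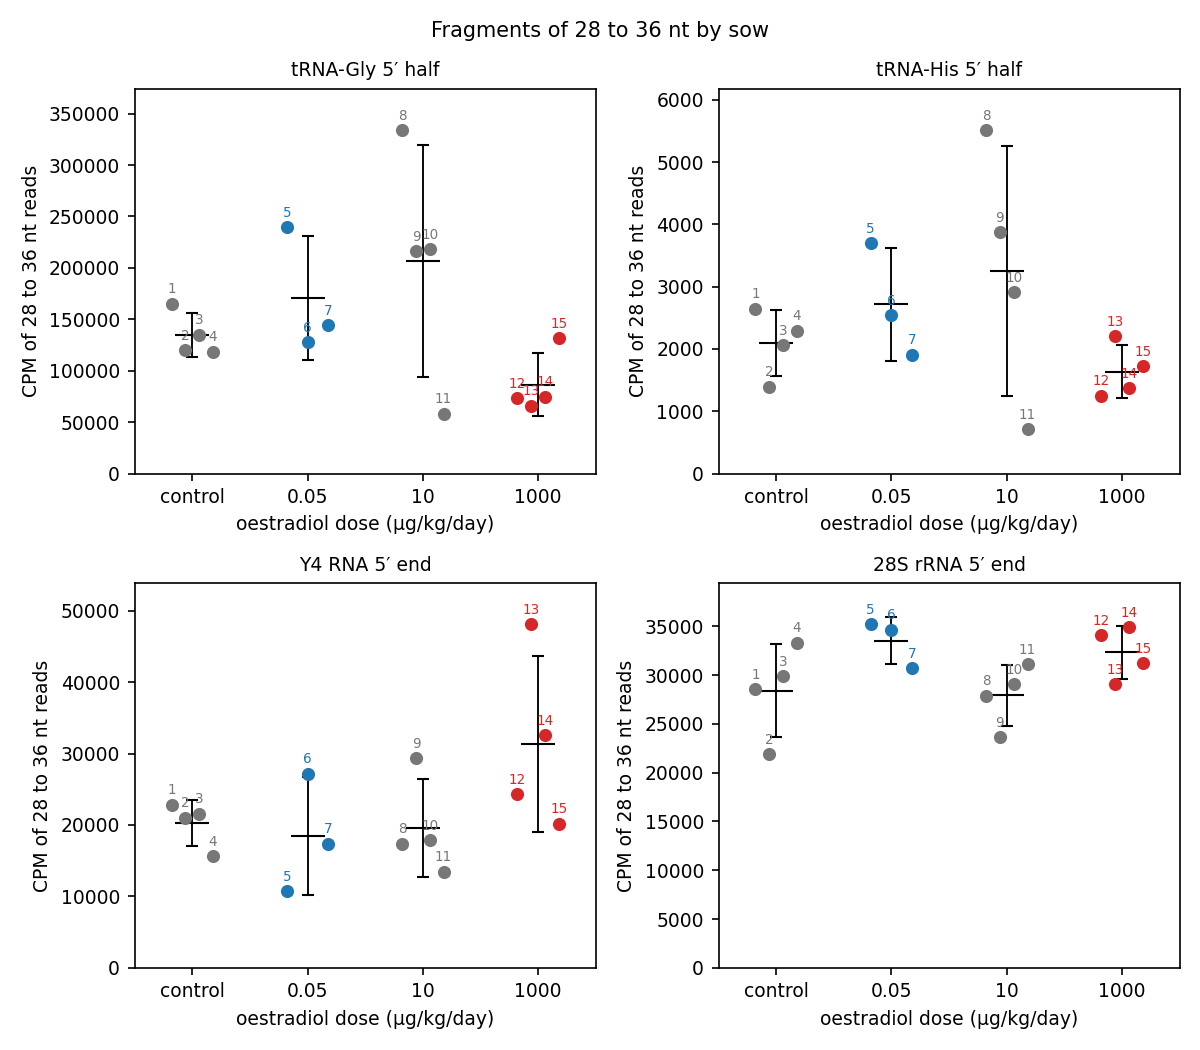
CPM of 28 to 36 nt reads is plotted on linear axes for each sow (points, numbered) against dose, with mean and SD as bars. For the tRNA-Gly fragment sows 12, 13 and 14 sit below sows 5, 6 and 7 and sow 15 is the highest of its group, tRNA-His and Y4 overlap between the doses, and the 28S fragment has 29094 to 35189 CPM in the 7 sows.

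Library composition did not separate the doses. Reads of 20 to 24 nt were 51.9 ± 6.21% of all reads in the high-dose sows and 46.5 ± 6.90% in the low-dose sows (SD, n = 4 and 3). For reads of 28 to 36 nt it was 17.8 ± 2.76% against 22.7 ± 5.04%. For the latter the two-sided exact permutation p was 0.114, the smallest of the 5 measures, and 0.571 after adjustment, where 0.0286 is the smallest p that 35 splits allow. Sow 5 had the highest share of 28 to 36 nt reads, 28.5%, and sow 15 the lowest, 14.8%. Reads of 40 nt or more made up 8.12 ± 4.71% against 9.03 ± 3.84%, and read groups with a listed seed 37.7 ± 2.54% against 33.7 ± 5.02% (SD, n = 4 and 3). The 10 most frequent miRNA groups held 55.95 ± 2.02% against 55.97 ± 1.89% of seed-bearing reads.

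**Figure D4:**
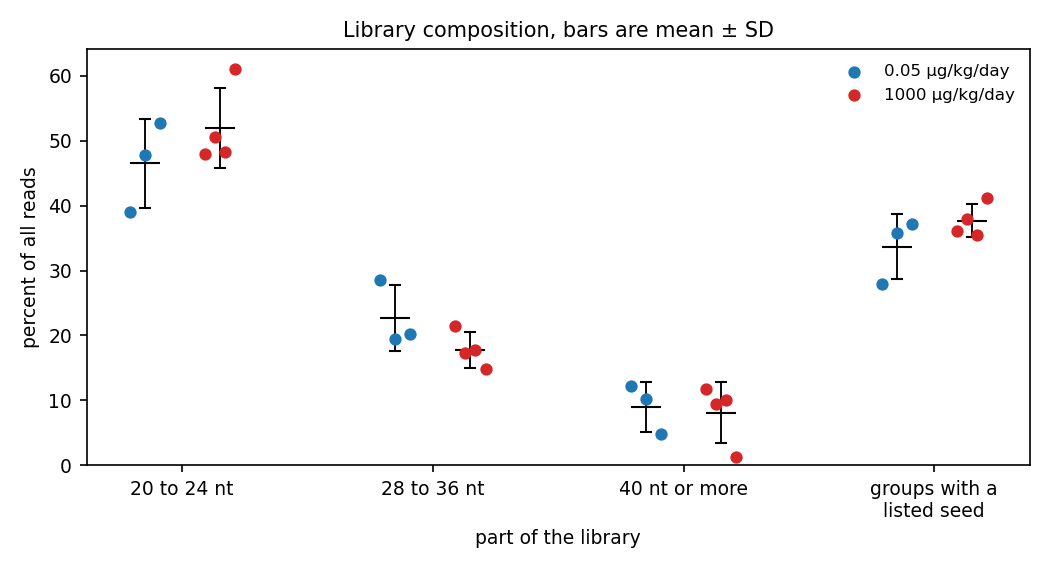
The percent of all deposited reads is plotted for each sow (blue 0.05, red 1000 µg/kg/day), with mean and SD as bars, for reads of 20 to 24 nt, 28 to 36 nt and 40 nt or more and for groups with a listed seed. The doses overlap in each, and sow 15 has 61.1% of reads at 20 to 24 nt and 1.22% at 40 nt or more.

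The ends of the most frequent miRNAs were nearly the same at both doses. For the 10 reads, mean length and the share of reads at the length of the leading read or longer gave 20 exact permutation tests, of which 0 passed adjustment. The smallest p was that of miR-10a, whose share was 96.3, 96.1 and 96.3% at the low dose and 95.7, 95.7, 95.7 and 95.7% at the high dose. The groups did not overlap, and the p of 0.0286 is the smallest the design allows (adjusted p = 0.381, exact permutation test). For miR-21, 68.2 ± 2.14% against 65.3 ± 4.31% of reads were full length (SD, n = 4 and 3).

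The balance of the arms of 1 hairpin, the log2 of 5p over 3p counts, was described with no test. For miR-423 it was -1.18 ± 0.25 in the high-dose sows against -1.58 ± 0.21 (SD, n = 4 and 3), the widest shift of 5 hairpins. The groups overlapped, with sow 7 at -1.34 above sows 12 and 13 at -1.42 and -1.36. For miR-126, miR-142, miR-151 and miR-199 the shifts were 0.14, 0.17, -0.29 and 0.02. In miR-151, sows 13 and 14 stood at -3.91 and -4.34 and the other 5 sows between -3.42 and -3.13.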

How the data were processed

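The authors deposited, for each library, every distinct read sequence with its raw count, per the files themselves, with reads of 17 to 49 nt. Per the labels' protocols, TRIzol RNA went into NEBNext small RNA libraries. The submitters' processing notes name FastQC, the pig build Sscrofa10.2, and as other builds GRCm38, UMD3.1 and GRCh37.p5, with no role. An aligner or adapter trimmer is not given in the sources used here.

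Reads of 18 to 26 nt with the same first 18 nt were summed into groups. Of 26704 groups with at least 30 reads, 11123 passed edgeR's filterByExpr, and they hold 93.8% of such reads. No miRNA reference was used here, so groups with a listed seed stand for the planned annotated miRNAs, and sums per seed for families (111 that average 10 reads or more). In 12 families the leading read was not that miRNA, and they are not named. The main test was edgeR 4.0.16 quasi-likelihood (glmQLFit, robust) on all 15 sows with TMM factors (0.747 to 1.24) and Benjamini-Hochberg adjustment, contrast 1000 minus 0.05. The biological coefficient of variation was 0.337 for groups, 0.297 for families and 0.314 for 28 to 36 nt groups. Sows are separate animals per the labels, so the replicate is the sow. Counts carry no molecular identifiers, so they count reads and not molecules. Class A has under 8% of reads at 17 to 19 nt. Of the rest, class B has under 5% at 40 nt or more, and class C the others.

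The named read groups are the 20 with a listed seed and the smallest p, the 10 most frequent, the 2 most frequent of each of 17 lists, and the 5 groups and 5 families with the smallest p over all. Reads of 28 to 36 nt, later-starting reads and tRNA pieces were added afterwards. One fragment is not reported here. Members and lists were chosen with earlier results of these data known. On simulated counts for this contrast, 7% of 2-fold and 67% of 4-fold changes were recovered among 10642 read groups with 3 false calls, and 60% and 100% among 111 families with 0 false calls. Simulated sows varied independently, with 1 spread for all read groups and 1 for all families. Alternatives were DESeq2 1.42.0, other scaling and filters, the 7 sows alone, length class, each sow left out and sow 7 from 1 library.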

Additional observations from a re-analysis of the deposited data

Results flagged for a closer look

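In 3 of the 88 values looked at, 1 of the 4 high-dose sows stood far from the other 3, where chance marks about 1 group in 20. Sow 12 had 36.2 CPM of miR-449b (aGGCAGTGtattgttagctggc), while sows 13 to 15 had 22.5 to 22.8. Without sow 12 the log2 difference of aGGCAGTGtattgttagctggc was 1.34. Sow 13 had 7.86 CPM of tGTAAACAtcatcgactggaagct, a variant of miR-30a, while the other 3 had 2.62 to 3.46. Sow 15 had 131860 CPM of the tRNA-Gly 5′ fragment, while sows 12 to 14 had 65868 to 74580.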

How the results depend on the processing

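0 families, 0 read groups and 0 seed-bearing groups were called by edgeR or DESeq2 in each alternative run. Of the 28 to 36 nt groups DESeq2 called 2, both with reads in sow 15 alone of the 7 sows (51.0 and 241 CPM), and edgeR called 0 in each alternative. Groups of 18 to 26 nt at an unadjusted p under 0.05 numbered 142 to 332, and their split was 92 higher and 121 lower by TMM but 119 and 26 when scaled by all deposited reads. That scaling moved the median over all groups to 0.16, over families to 0.14 and over 28 to 36 nt groups to -0.15. Of 83 single features 24 changed sign in some alternative, and the cause was not tested.

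Scaled by all deposited reads the log2 difference took the other sign, at 0.090 for let-7, 0.066 for miR-10, 0.037 for miR-99 and miR-100, 0.095 for miR-27, 0.024 for miR-22, 0.061 for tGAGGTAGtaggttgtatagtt, 0.094 for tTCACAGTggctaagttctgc and 0.11 for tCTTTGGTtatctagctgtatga. With sow 7 from library 7a the log2 difference took the other sign, at 0.034 for let-7, 0.029 for miR-99 and miR-100, 0.056 for miR-27, 0.035 for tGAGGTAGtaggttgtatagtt and 0.055 for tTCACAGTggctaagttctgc. By DESeq2 the log2 difference took the other sign, at 0.0090 for miR-27 and 0.0080 for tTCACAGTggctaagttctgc. With sow 7 from library 7b the log2 difference took the other sign, at -0.032 for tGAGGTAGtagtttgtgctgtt, -0.019 for tACCCTGTagatccgaatttgt and 0.083 for 5S rRNA 3′ end. With TMM factors from groups with a listed seed the log2 difference took the other sign, at -0.021 for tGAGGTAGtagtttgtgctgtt. With length class in the model the log2 difference took the other sign, at -0.072 for tCGTACCGtgagtaataatgcg, -0.11 for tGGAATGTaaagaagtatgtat and 0.012 for 5S rRNA 3′ end. With each sow left out in turn the log2 difference changed sign within ranges of -0.047 to 0.15 for miR-21, -0.18 to 0.045 for let-7, -0.25 to 0.52 for miR-143, -0.15 to 0.054 for miR-10, -0.22 to 0.16 for miR-99 and miR-100, -0.14 to 0.13 for miR-27, -0.052 to 0.28 for miR-200a and miR-141, and -0.23 to 0.20 for miR-22. For single reads and fragments these ranges were -0.048 to 0.15 for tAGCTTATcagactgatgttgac, -0.25 to 0.52 for tGAGATGAagcactgtagctct, -0.20 to 0.18 for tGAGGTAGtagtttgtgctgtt, -0.15 to 0.067 for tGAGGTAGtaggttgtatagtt, -0.14 to 0.13 for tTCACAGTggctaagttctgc, -0.061 to 0.19 for tACCCTGTagatccgaatttgt, -0.27 to 0.12 for aACCCGTAgatccgatcttgt, -0.017 to 0.14 for tAGCTTATcagactggtgttgac, -0.052 to 0.28 for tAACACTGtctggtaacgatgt, -0.0058 to 0.37 for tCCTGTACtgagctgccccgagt, -0.16 to 0.28 for tCGTACCGtgagtaataatgcg, -0.23 to 0.60 for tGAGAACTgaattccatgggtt, -0.43 to 0.70 for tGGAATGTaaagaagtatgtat, -0.33 to 0.37 for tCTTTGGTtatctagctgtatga, -0.34 to 0.16 for tGGCTCAGttcagcaggaac, and -0.34 to 0.18 for 5S rRNA 3′ end. The difference in the share of reads of 40 nt or more ran from -3.05 to 1.39 percentage points, and that of the 10 most frequent groups from -0.849 to 1.04, or 0.082 with sow 7 from library 7b.

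No paired analysis was possible because the dose groups share no replicate numbers. An alternative that allows a shifted start in the hairpin was not run, since no hairpin sequences were used here. With 7% of 2-fold changes recovered among read groups on simulated counts, a difference of that size in a single read group was mostly not detectable at this number of sows.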

Other observations

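The 2 fragments of 28 to 36 nt that DESeq2 called were present in 4 of the 15 sows of the series and had 0 reads in the others. The first had 51.0 CPM in sow 15, 66.9 and 77.4 in control sows 1 and 2, and 92.7 in sow 11 at 10 µg/kg/day. The second had 241 CPM in sow 15, 422 and 572 in control sows 1 and 2, and 420.1 in sow 11. Neither followed the dose, and edgeR gave both an adjusted p of 0.9997.

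The libraries of sow 7, 7a with 7057302 and 7b with 11468278 reads, gave an idea of the spread between extractions of 1 sow. Over 391 read groups of at least 10 CPM their median absolute log2 difference was 0.16, beside a median SE of 0.30 for the dose difference of the 71 abundant families. Across those families the median SD of log2 CPM was 0.35 in the high-dose sows and 0.23 in the low-dose sows, and it was larger at the high dose in 53 of 71.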
